A study of Mus musculus with 20 samples.

Results

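The subunits of oxidative phosphorylation were taken from the count table by name. A gene was a member when its symbol began with mt-Nd, mt-Co, mt-Cytb, mt-Atp, Uqcr or Atp5 and a letter, or with Nduf and one of the letters a, b, c, s or v and a digit, or with Cox, a digit from 4 to 8 and a letter, and names holding -ps were left out. This rule found 98 of 55401 genes, of which 85 lie in the nuclear genome and 13 in the mitochondrial genome. The nuclear members were 38 of complex I, 8 of complex III, 21 of complex IV and 18 of complex V, and Ndufa4 and Ndufa4l2 were counted with complex IV, to which Ndufa4 protein belongs. The heart, kidney, small intestine, liver and spleen of 8-week-old female mice gave 20 libraries of poly-A RNA, 2 for each organ and genotype. KO mice were homozygous for a CRISPR/Cas9 deletion of exons 3 and 4 of Nsun6, which encodes an RNA m5C methyltransferase. The deletion was made in fertilized eggs of C57BL/6J mice and is therefore carried by every cell, and WT mice lack it. Replicates are described as biological, no treatment is named, and the sources used here do not say whether one mouse gave several organs.

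Oxidative phosphorylation takes place in the inner mitochondrial membrane. Complexes I and II pass electrons from NADH and succinate to ubiquinone, complex III passes them to cytochrome c, and complex IV, cytochrome c oxidase, passes them to oxygen. Complexes I, III and IV pump protons, and complex V, ATP synthase, uses the proton gradient to make ATP. All complexes but complex II hold subunits from both genomes, and several complex IV subunits and the membrane ring of complex V have alternative genes, some of them known for expression in heart and skeletal muscle.

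The results below turn on a few such isoform genes, and the promoters of 3 of them are shown. Cox7a1 and Cox8b were higher than Cox7a2 and Cox8a in heart libraries and lower in those of the other organs. The sequences are from RefSeq on GRCm38.p6 and run 5′ to 3′ on the strand of the gene, from 250 bases before to 50 bases after the annotated start. Capitals mark matches to the motifs named below. Cox7a1 lies at chr7:30183921-30184220 on the plus strand, Cox8b at chr7:140900397-140900696 on the minus strand and Cox8a at chr19:7217567-7217866 on the minus strand.
Cox7a1: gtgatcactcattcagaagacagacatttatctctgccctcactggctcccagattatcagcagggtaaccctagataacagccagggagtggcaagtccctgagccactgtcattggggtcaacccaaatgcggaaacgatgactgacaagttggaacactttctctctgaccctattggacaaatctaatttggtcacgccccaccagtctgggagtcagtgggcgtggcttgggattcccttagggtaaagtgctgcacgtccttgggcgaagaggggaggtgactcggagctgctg
Cox8b: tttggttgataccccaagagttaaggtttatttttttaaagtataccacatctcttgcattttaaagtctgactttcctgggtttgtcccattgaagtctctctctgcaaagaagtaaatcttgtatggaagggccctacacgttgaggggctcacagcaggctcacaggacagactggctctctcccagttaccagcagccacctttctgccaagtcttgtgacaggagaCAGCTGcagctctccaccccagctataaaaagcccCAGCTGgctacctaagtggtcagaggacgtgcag
Cox8a: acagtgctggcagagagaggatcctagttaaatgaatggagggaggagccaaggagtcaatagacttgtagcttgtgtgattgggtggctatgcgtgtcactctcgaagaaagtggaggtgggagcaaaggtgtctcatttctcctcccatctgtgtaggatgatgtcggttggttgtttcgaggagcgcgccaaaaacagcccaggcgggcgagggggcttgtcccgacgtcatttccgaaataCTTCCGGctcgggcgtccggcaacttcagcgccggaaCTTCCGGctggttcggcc
The Cox8b window holds the E-box CAGCTG at positions -19 and 17 from the start, and the Cox8a window holds the ETS core CCGGAAG on the opposite strand, as CTTCCGG, at positions -5 and 33. Neither these motifs nor the NRF1 core TGCGCA, the ERR element AAGGTCA or the YY1 motif AANATGGCG occur in the Cox7a1 window. The window of its partner Cox7a2, not printed, holds none of them either. The Cox6a1 window, also not printed, holds TGCGCA at position -118 and CTTCCGG at position -16. Of the 84 nuclear symbols, 65 had a promoter in the table. On either strand, TGCGCA was found in 24.6% of the 65 windows and in 7.79% of all 32544 windows of the same length, CCGGAAG in 21.5% and 8.91%, AAGGTCA in 10.8% and 4.71%, AANATGGCG in 12.3% and 2.39%, and CAGCTG in 9.23% and 16.4%. These shares describe letters in a window and were not tested. The median GC content was 57.0% in the windows of the members and 53.0% in all windows.

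Libraries held 15897446 to 44508197 counts (median 28513950), and for abundant members precision was limited by how far replicates lay apart rather than by counting error. All 13 mitochondrial members (mt-Nd1, mt-Nd2, mt-Nd3, mt-Nd4, mt-Nd4l, mt-Nd5, mt-Nd6, mt-Cytb, mt-Co1, mt-Co2, mt-Co3, mt-Atp6 and mt-Atp8), which encode the core membrane subunits, were listed at 0 in all 20 libraries. So were all 37 genes of the mitochondrial genome in the table, ribosomal and transfer RNA genes included. Their level is therefore not known from these counts, and all results below are on the nuclear members. Counts were found in every library for 77 of the 85 nuclear members. In the comparison of organs, 81 were left after the filter on low values. The members that did not pass were Cox7b2 and Cox8c, isoform genes of complex IV known from the testis, Ndufa11b, and a second locus named Atp5o, all of whose exon bases overlap other genes. The copies Ndufs6b, Ndufb4c, Ndufa11b and Cox6c2 resemble their parent genes, and reads that map to several places are not counted by default, so their levels are uncertain.

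Libraries carried the defining markers of their labelled organ, but some also held transcripts of other organs. In small intestine KO 1, 9 cardiomyocyte markers summed to 574 TPM (counts divided by exon length, on a common total per library), with Myl2 the most abundant at 252 TPM, against 8.64 to 15.8 TPM in the other small intestine libraries. In liver WT 1 the same markers summed to 25.4 TPM, against 1.14 to 3.91 TPM in the other liver libraries. In spleen WT 2, 8 hepatocyte markers summed to 6003 TPM, led by Alb at 4498 TPM, against 16.3 to 284 TPM in the other spleen libraries. In spleen KO 1, 6 proximal tubule markers of the kidney summed to 189 TPM, led by Kap at 174 TPM, against 1.89 to 3.02 TPM in the other spleens. Small intestine replicates also differed by position. Markers of the distal intestine summed to 118411 TPM in WT 1 and 56830 TPM in KO 1, against 4420 TPM in WT 2 and 214 TPM in KO 2. Nsun6 itself was counted over all its exons, so that the deletion removes only some of its reads. Its level in WT and KO libraries was, in the order WT 1, WT 2, KO 1, KO 2, 6.62, 6.27, 5.57 and 5.11 CPM (counts scaled by library size) for the heart and 6.32, 6.55, 4.38 and 3.71 CPM for the kidney. It was 9.67, 6.09, 9.13 and 5.09 CPM for the small intestine, 4.68, 3.18, 2.67 and 2.92 CPM for the liver and 8.77, 6.59, 5.99 and 10.3 CPM for the spleen. Both KO libraries were lower than both WT libraries in heart, kidney and liver, and the genotypes overlapped in small intestine and spleen. No organ reached an adjusted p under 0.1 for Nsun6 (edgeR quasi-likelihood test with Benjamini-Hochberg adjustment, log2 fold changes from -0.67 to 0.08), so the gene count alone did not check the genotype labels.

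Nuclear members took 5.71 to 8.58% of all counts of a heart library, 2.98 to 4.13% of a kidney library, 1.47 to 2.43% of a small intestine library, 1.17 to 1.47% of a liver library and 0.836 to 0.969% of a spleen library. The ranges of the heart, the kidney and the spleen overlapped with no other organ, while the small intestine and the liver overlapped. By complex, the mean summed level of complex IV was 49705 TPM ± 10590 (SD, n = 4) for heart, 20862 ± 1244 for kidney, 13030 ± 2663 for small intestine, 6369 ± 843 for liver and 5092 ± 243 for spleen. Complex V, which makes ATP, gave 26438 TPM ± 1062 for heart, 12101 ± 950 for kidney, 8019 ± 1670 for small intestine, 4328 ± 633 for liver and 3358 ± 180 for spleen. Complex I followed the same order, from 31104 TPM in the heart to 4749 TPM in the spleen, and so did complex III, from 17800 to 2265 TPM. The make-up differed less than the sum. Complex I made up 24.1% of the summed level of small intestine and 24.8% of that of heart, against 29.0% (kidney), 29.8% (liver) and 30.7% (spleen), and complex IV made up 39.5% in heart and 30.9% in liver. In a bulk sample, fewer cells rich in mitochondria and less RNA per cell cannot be told apart.

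**Figure D1:**
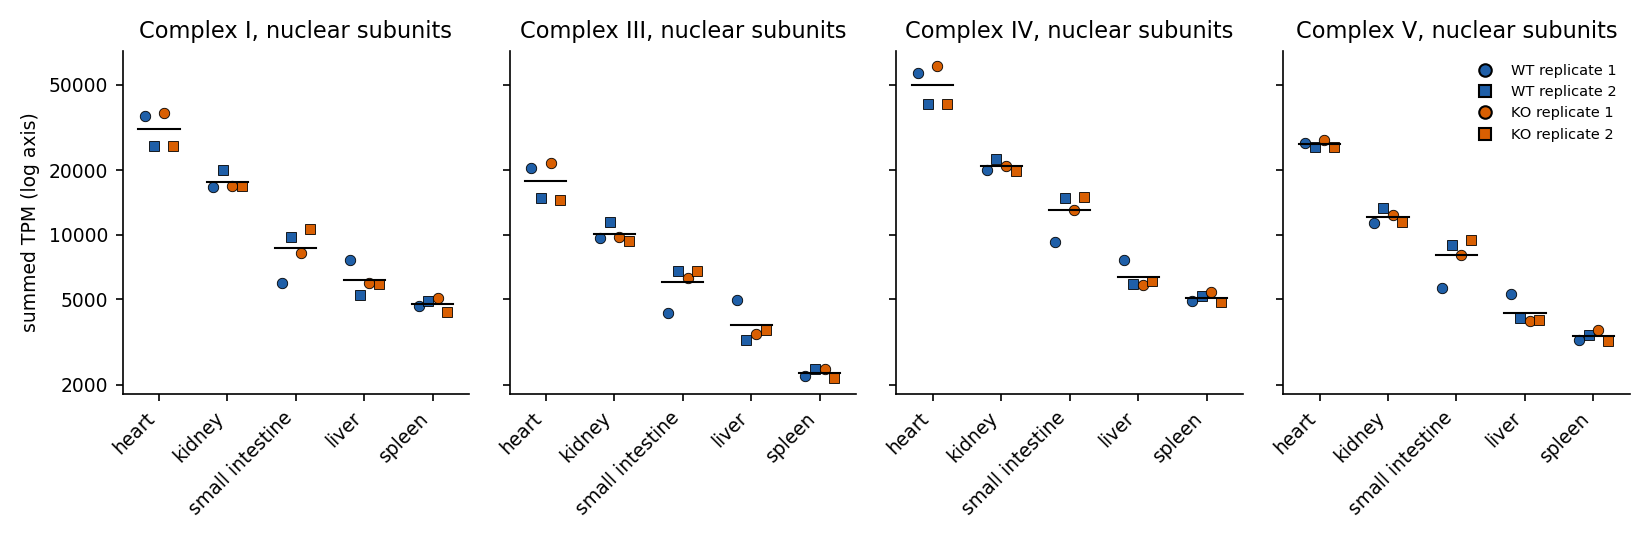
Summed TPM of the nuclear members of complexes I, III, IV and V (log axis) in each organ. Points are the 4 libraries, WT and KO marked apart, and bars are the mean of an organ. The heart lies highest and the spleen lowest in every complex, with complex IV at 49705 TPM in the heart and 5092 TPM in the spleen.

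Single members differed widely in level within each complex. The highest mean level over the 20 libraries was 1152 TPM for Ndufa2 in complex I, 1797 TPM for Uqcr10 in complex III, 2877 TPM for Cox6a2 in complex IV and 1552 TPM for Atp5a1, the alpha subunit of the catalytic head, in complex V. The rank of Cox6a2 rests on the heart, since it had at most 95.3 TPM in any library of another organ. The other ranks need not hold within each organ either. Per exon base, Uqcrh had more counts than Uqcr10 in every small intestine and spleen library, and Atp5h more than Atp5a1 in every spleen library. The lowest was 203 TPM for Uqcrc1 in complex III. In complexes I, IV and V the lowest were Ndufa11b at 0.185 TPM, Cox8c at 0.00834 TPM and the second Atp5o locus at 0. Among members that passed the filter, Ndufb2 in complex I stood low at 5.58 TPM. Before division by length it was low as well, at 6.05 to 19.1 CPM.

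Each organ was compared with the mean of the other 4 organs in one fit of all 20 libraries, and a gene was called when its adjusted p was under 0.1 and its fold change over 2 (edgeR quasi-likelihood test). In the heart, 77 of 81 members were higher and 2 lower, where 22.7% of all 21168 genes tested were called higher and 21.8% lower. The median log2 difference of the members was 2.08, against -0.14 over all genes. All 8 members of complex III, all 17 of complex V that were tested and 36 of 37 of complex I were called higher. In the spleen, 75 members were lower and 1 higher, where 21.3% of all genes were called lower and 24.6% higher, and the median of the members was -2.37 against -0.01 over all genes. In the kidney, 15 members were higher and 1 lower (20.1% and 14% of all genes), with a median of 0.68. The small intestine had 3 higher and 3 lower members (24.8% and 18.4%), with a median of -0.21. The liver had 9 lower members and none higher (23.2% and 17.1%), with a median of -0.31 against -0.20 over all genes.

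**Figure D2:**
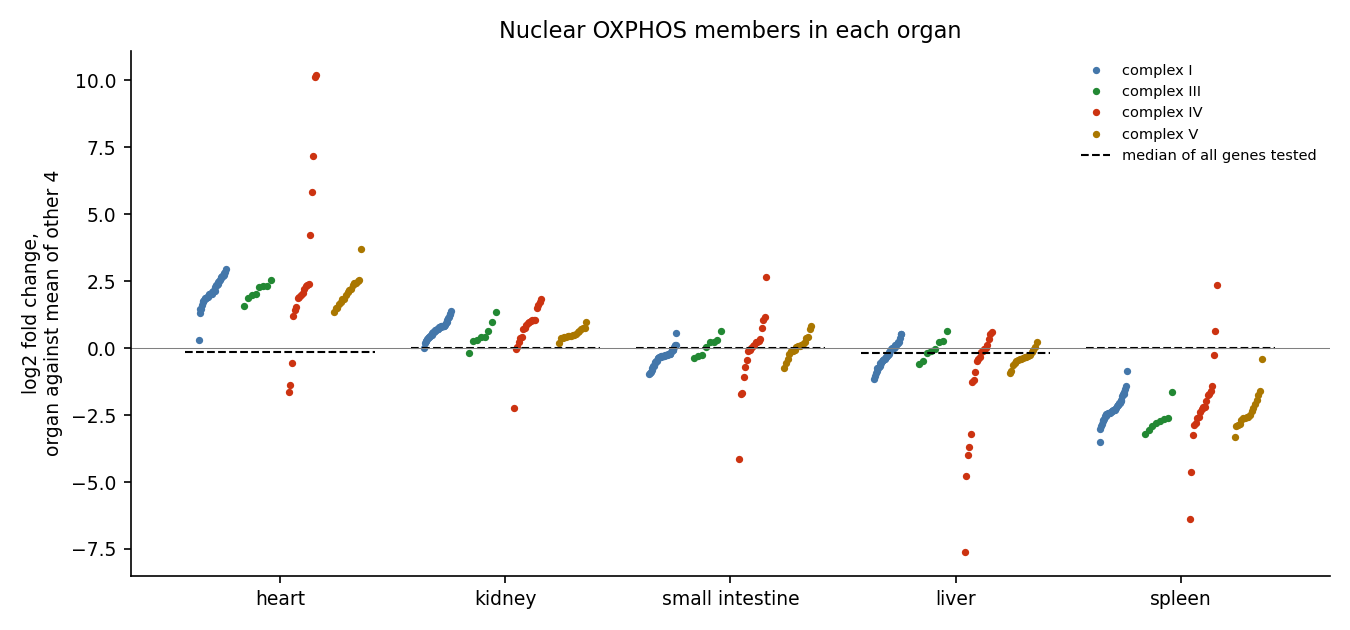
Log2 difference between each organ and the mean of the other 4 organs for the 81 members tested, grouped by complex. Each point is a member, and the dashed line is the median of all genes. The median of the members is 2.08 in the heart, 0.68 in the kidney and -2.37 in the spleen.

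Atp5b, the catalytic beta subunit of ATP synthase, is one of the members whose 4 heart libraries all lay above and whose 4 spleen libraries all lay below the others. Its level was 5941, 5878, 6839 and 6023 CPM in the heart libraries in the order WT 1, WT 2, KO 1, KO 2, and 1572, 2813, 2466 and 2277 CPM in the kidney. Small intestine libraries had 941, 1750, 1218 and 1736 CPM, liver libraries 1037, 1414, 1294 and 1514 CPM and spleen libraries 256, 301, 317 and 329 CPM. The kidney overlapped with the small intestine, and the small intestine with the liver. The log2 difference was 2.54 (SE 0.16) in the heart and -2.91 (SE 0.23) in the spleen. Ndufs1, the largest iron-sulfur subunit of complex I, had 1146, 1064, 1274 and 1030 CPM in the heart and 60.8, 62.8, 74.6 and 62.9 CPM in the spleen. Its log2 difference was 2.82 (SE 0.14) in the heart. Uqcrc2, a core subunit of complex III, had 2254, 1901, 2437 and 1508 CPM in the heart and 105, 121, 104 and 112 CPM in the spleen, and its log2 difference was 2.54 (SE 0.18) in the heart. These 3 genes were chosen after their values were seen.

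Over the 81 members tested, the heart had the highest mean level for 77, the kidney was second for 71 and the spleen last for 75. The order heart, kidney, small intestine, liver, spleen held for 37 members and the order with the small intestine and the liver exchanged for 29. All 4 heart libraries lay above all other 16 for 40 members, where 11.1% of all genes did so, and all 4 spleen libraries lay below all other 16 for 71 members, where 6.72% did so. All 4 small intestine libraries lay below the others for 1 member (4.12% of all genes) and all 4 liver libraries for 1 (4.13%). No member had all its small intestine (8.3% of all genes), liver (7.59%), spleen (12.7%) or kidney (5.57%) libraries above all others.

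The members outside the common pattern were mostly isoform genes. In the heart, Cox8b (log2 difference 10.22, SE 0.62), Cox6a2 (10.12, SE 0.83) and Cox7a1 (7.18, SE 0.33) were the highest. Cox6a1 (-1.39, SE 0.25, adjusted p = 0.000113) and Cox6b2 (-1.63, SE 0.54, adjusted p = 0.0148), the latter known from the testis, were lower. Cox8a (-0.54, SE 0.22) and Ndufb2 (0.31, SE 0.17) were not called. In the spleen, Cox7a1 (-6.39, SE 0.56), Cox8b (-4.61, SE 0.92) and Ndufs6b (-3.51, SE 0.41) were the lowest and Cox6b2 (2.34, SE 0.42) was higher. Cox8b had 0.0763 to 0.453 CPM in the spleen, below the kidney and the heart. It overlapped with the liver (0 to 0.870 CPM) and the small intestine (0.116 to 3.79 CPM). The 5 members not called in the spleen were Atp5g2 (-0.42), Cox7a2l (-0.24), Ndufb2 (-0.86), Cox6a2 (-1.42) and Cox4i2 (0.64).

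In the kidney, Cox4i2 (log2 difference 1.82, SE 0.41), Cox6b2 (1.71, SE 0.42) and Cox6a1 (1.60, SE 0.21) were the highest, and Cox6a2 was lower (-2.22, SE 0.996, adjusted p = 0.0792 in the edgeR test). This call was lost with the replicate number as a block, with library totals, limma, no filter on low counts, WT libraries alone or an adjusted p under 0.05, and when any 1 kidney library, liver WT 1, heart WT 1 or heart KO 1 was left out. Cox6a2 had 3.85 to 4.63 CPM in the kidney libraries, below the heart and the spleen (6.32 to 7.29 CPM), but above the liver (0 to 3.28 CPM) and 3 of the 4 small intestine libraries (0.203 to 0.956 CPM). Of the 15 higher members, 8 belonged to complex IV, 6 to complex I and 1, Uqcr10, to complex III. None of the 17 members of complex V tested was called, but all had positive log2 differences below the threshold, from 0.205 to 0.983 (median 0.475). The 15 calls became 8 without kidney WT 2 and 25 without kidney WT 1, so that their division by complex is uncertain. In the small intestine, Cox7a1 (2.66, SE 0.32), Cox6a1 (1.17, SE 0.21) and Cox8a (1.04, SE 0.20) were higher, and Ndufa4l2 (-4.13, SE 0.54), Cox8b (-1.68, SE 0.79, adjusted p = 0.0793 in the edgeR test) and Ndufa4 (-1.07, SE 0.25) lower. The call of Cox8b is not held at an adjusted p under 0.05, and its small intestine libraries (0.116 to 3.79 CPM) lay below the heart but overlapped with the liver (0 to 0.870 CPM), the spleen (0.0763 to 0.453 CPM) and the kidney (2.11 to 3.81 CPM). All 6 are genes of complex IV. Of the 3 lower calls in the small intestine, 1 was left without small intestine WT 1 and 1 with at least 10 counts in every library. In the liver, Cox6a2 (-4.76, SE 1.22) and Cox8b (-3.98, SE 0.94) were lower. Both lay below the heart and the kidney in every liver library but overlapped with the small intestine, and Cox8b also with the spleen. Cox4i2, the hypoxia-linked isoform of subunit 4, was at 0 in all 4 liver libraries. A floor of 3 counts in each library equals 0.134 CPM. Cox4i2 had 6.36 to 8.66 CPM in the heart libraries, but 0.0825 to 0.279 CPM in the small intestine, which reaches that floor. The other 6 members lower in the liver were Cox7a1, Cox6b2, Cox5a, Cox5b, Ndufa3 and Ndufa11.

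The order of the organs depended little on the way libraries were scaled, but counts of calls in the liver and the kidney did. Scaling by library totals placed the median of all genes at -0.97 (liver), 0.70 (spleen), 0.22 (kidney) and -0.26 (heart). On that scale, 45 members were lower in liver, 27 higher in kidney, 77 higher in heart and 65 lower in spleen. The median of the members in the liver was then -1.06, beside the -0.97 of all genes. The shares of all genes called on that scale are not given here, so that these counts do not set the members apart from other genes.

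The isoform genes of complex IV were described by their levels in TPM. Cox6a2 encodes the muscle form of subunit 6a and Cox6a1 the form of most other tissues. Cox6a2 had 16590, 10590, 17900 and 12120 TPM in the heart libraries in the order WT 1, WT 2, KO 1, KO 2, while Cox6a1 had 541, 384, 522 and 380 TPM there. In the kidney, Cox6a2 had 25.6, 12.5, 19.03 and 18.97 TPM and Cox6a1 had 2467, 2749, 3240 and 2930 TPM. Every heart library held more Cox6a2 than Cox6a1, and every other library more Cox6a1. The share of Cox6a2 in the sum of both was 96.9% ± 0.279 (SD, n = 4) in heart, 5.97% ± 1.0 in spleen, 1.33% ± 2.44 in small intestine, 0.677% ± 0.247 in kidney and 0.356% ± 0.586 in liver. Small intestine KO 1, with 95.3 TPM, and liver WT 1, with 9.56 TPM, stood apart from the other libraries of their organ, which held 0.835 to 3.11 and 0 to 0.941 TPM. Without them, the mean share was 0.108% in small intestine, below that of kidney, and 0.0640% in liver. In small intestine KO 1, Cox6a2 stood at 0.666% of its heart level and the 9 cardiomyocyte markers at a median of 0.683% of theirs. In liver WT 1 these values were 0.0669% and 0.0316%. The part of heart transcripts in these values was not tested.

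In the spleen, Cox6a2 had 42.9, 37.5, 38.3 and 34.1 TPM, at 0.239 to 0.300% of its heart level, while the cardiomyocyte markers had a median of 0.0118 to 0.0377% of theirs. Cox6a2 shares 10.3% of its exon bases with Itgad, an integrin gene of macrophages. Itgad had 36.6, 41.96, 38.5 and 33.8 TPM in the same spleen libraries and at most 1.39 TPM in any library of another organ. The part of Itgad transcripts in the Cox6a2 counts of the spleen was not tested.

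Cox7a1, the muscle form of subunit 7a, had 5024, 2515, 5248 and 2984 TPM in the heart, and Cox7a2, the form of most other tissues, had 2261, 1769, 2359 and 1239 TPM. Cox7a1 was higher than Cox7a2 in every heart library. Cox7a2 was itself called higher in the heart than in the other organs (log2 difference 1.53, SE 0.21). Its mean was 1907 TPM in the heart and 1669 TPM in the kidney. In the small intestine, Cox7a1 had 89.4, 443, 375 and 434 TPM, of which 3 lay above the 76.5 to 120 TPM of the kidney, while the liver had 4.34 to 11.6 TPM and the spleen 2.104 to 4.31 TPM. The share of Cox7a1 in the sum of both was 66.8% ± 5.47 in heart, 23.9% ± 9.24 in small intestine, 5.73% ± 0.441 in kidney, 1.29% ± 0.408 in spleen and 1.09% ± 0.328 in liver. In small intestine WT 2 and KO 2, which had the highest Cox7a1 levels of this organ, the cardiomyocyte markers summed to 10.45 and 15.8 TPM. Summed smooth muscle markers of the small intestine were 283, 366, 2745 and 1182 TPM, lowest in WT 1 as was Cox7a1 and highest in KO 1, and their part in the level of Cox7a1 was not tested. Cox7a2l, which encodes a factor that links complexes III and IV, was not called lower in the spleen, with 600, 560, 447 and 547 TPM there and 671 to 813 TPM in the heart.

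Cox8b, the muscle form of subunit 8, had 5830, 3746, 6644 and 4203 TPM in the heart, and Cox8a, the form of most other tissues, 984, 679, 1017 and 660 TPM. In the kidney, Cox8b had 24.7, 23.3, 20.1 and 16.8 TPM and Cox8a 2865, 2728, 3311 and 3465 TPM. Cox8b was the higher gene in every heart library and the lower one in every other library. The share of Cox8b was 85.8% ± 0.927 in the heart and at most 1.55% in any other library, the highest being small intestine KO 1. The promoter windows printed above are those of these 2 genes and of Cox7a1. The ratio of the mean levels of the muscle form and the other form in the heart was 31.3 for Cox6a2 and Cox6a1, 6.11 for Cox8b and Cox8a and 2.07 for Cox7a1 and Cox7a2.

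**Figure D3:**
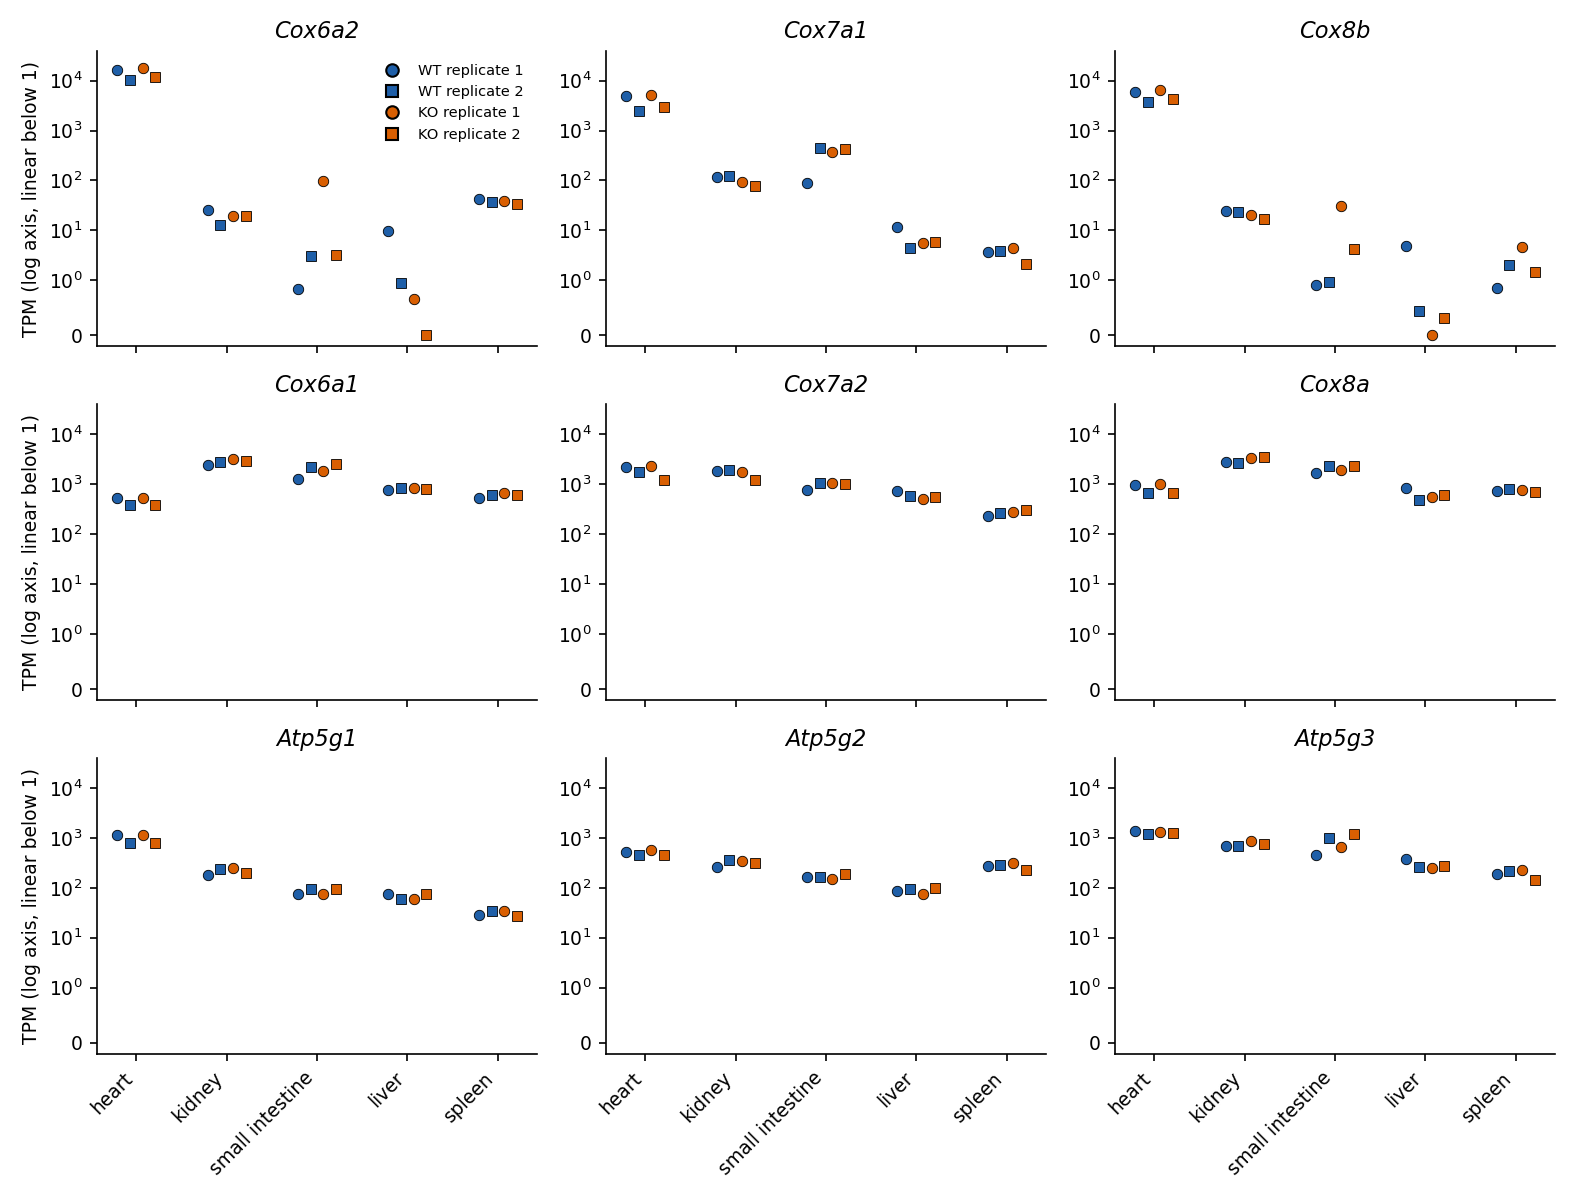
TPM of the isoform genes of subunits 6a, 7a and 8 of complex IV and of the 3 genes for the ring subunit of complex V (symmetric log axis, linear below 1). Points are libraries by organ. Cox6a2, Cox7a1 and Cox8b lie above their partners in the 4 heart libraries and below them in all others.

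The remaining pairs of complex IV were dominated by one gene everywhere. Cox4i2 made up 0.780% ± 0.0537 of the sum with Cox4i1 in heart, 0.449% ± 0.328 in spleen, 0.189% ± 0.0181 in kidney, 0.0567% ± 0.0284 in small intestine and 0 in liver. The spleen value was 0.293% without WT 1, which had 0.918%. Cox6b2 made up 5.20% ± 2.58 of the sum with Cox6b1 in the spleen, with 28.7, 52.9, 91.0 and 26.5 TPM of Cox6b2 in its libraries, and 0.963% or less on average in the other organs. Ndufa4l2, a paralog of Ndufa4 known to rise with hypoxia, made up 0.794% ± 0.349 in the heart and 0.0535% ± 0.0561 in the small intestine, or 0.0278% there without KO 1. Cox7b, whose partner Cox7b2 had at most 0.557 TPM in any library, ranged from 249 to 307 TPM in the spleen to 2943 to 4657 TPM in the heart.

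The membrane ring of ATP synthase is built of 1 protein that is encoded by Atp5g1, Atp5g2 and Atp5g3, which differ in the part that is removed on import. Atp5g1 had 1151, 811, 1134 and 791 TPM in the heart, against 179 to 255 TPM in the kidney and 27.3 to 35.0 TPM in the spleen. It made up 34.9% ± 3.05 of the 3 genes in the heart and 6.30% ± 0.439 in the spleen. Atp5g2 had 276, 289, 314 and 229 TPM in the spleen and made up 55.3% ± 1.70 of the 3 genes there, against 16.7% to 24.9% on average in the other organs. Atp5g3 had 450, 989, 664 and 1180 TPM in the small intestine and made up 74.9% ± 7.22 there, 64.7% ± 4.01 in liver, 58.3% ± 3.34 in kidney, 46.9% ± 2.89 in heart and 38.4% ± 1.94 in spleen. Atp5g1 thus had its highest share in the heart, Atp5g2 in the spleen and Atp5g3 in the small intestine.

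All 10 pairs of organs were compared for each of the 9 shares by a two-sided exact permutation test of 4 against 4 libraries, whose smallest possible p is 0.02857. After adjustment over the 90 comparisons, 68 had an adjusted p under 0.1. The heart differed from all 4 other organs in the shares of Cox6a2, Cox7a1, Cox8b, Ndufa4l2, Atp5g1 and Atp5g3, and the spleen in those of Cox6a2, Cox6b2, Atp5g2 and Atp5g3. The small intestine did so in those of Cox7a1, Cox4i2, Ndufa4l2 and Atp5g3, the kidney in Cox7a1 and Atp5g3, and the liver in Cox4i2 and Atp5g3. The shares of Cox6a2 in the small intestine and the kidney were not told apart (exact p = 1, difference 0.649 percentage points), where small intestine KO 1, at 4.98%, sets the sign, since the other 3 small intestine libraries (0.0638 to 0.139%) lay below all 4 of the kidney (0.452 to 1.03%). Nor were those of Cox7a1 in the liver and the spleen (exact p = 0.4571, difference -0.20 percentage points). The test does not show that they are alike.

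Genes around the 5 complexes were taken from lists by function, chosen with earlier results of these data known. Their counts stand beside the shares of all genes given above, with 22.7% higher and 21.8% lower in the heart, 24.6% higher and 21.3% lower in the spleen, 24.8% and 18.4% for small intestine, 20.1% and 14% for kidney and 17.1% and 23.2% for liver. All 4 genes of complex II, which also belongs to the citric acid cycle, were higher in the heart than in the other organs and lower in the spleen. Sdha, its flavoprotein subunit, had a mean of 1871 CPM ± 207 (SD, n = 4) in the heart and 161 CPM ± 10.7 in the spleen, with log2 differences of 2.12 (SE 0.18) and -2.30 (SE 0.24). Of 6 genes for cytochrome c and the carriers to ubiquinone, 4 were higher in the heart and 5 lower in the spleen. Cycs, cytochrome c, lay at 2.63 (SE 0.14) in the heart, 1.15 (SE 0.15) in the small intestine and -3.31 (SE 0.21) in the spleen. Etfa and Etfdh, which pass electrons from fatty acid oxidation, lay at 2.03 (SE 0.18) and 3.13 (SE 0.185) in the heart. In the liver they lay at 1.44 (SE 0.18) and 1.41 (SE 0.20). Of 17 genes of the citric acid cycle and pyruvate dehydrogenase, 16 were higher in the heart and 17 lower in the spleen, where Idh2 lay at 4.25 (SE 0.14) in the heart and Suclg2 at -2.89 (SE 0.17) in the spleen. In the small intestine, Cs, citrate synthase, was higher (1.86, SE 0.14) and Idh2 lower (-2.34, SE 0.19).

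Assembly factors help to build the complexes and are not part of the finished ones. Of 17 for complex I, 11 were higher in the heart, 13 lower in the spleen and 8 lower in the small intestine. Of 19 tested for complex IV, 7 were higher in the heart and 10 lower in the spleen, and Sco1, a copper chaperone, was at 1.61 (SE 0.13) in the small intestine and -2.03 (SE 0.16) in the spleen. For complex III, 4 of 6 were higher in the heart, with Lyrm7 at 3.06 (SE 0.14) and Uqcc1 at 2.96 (SE 0.13), and 4 lower in the spleen. For complex V, 3 of 4 were higher in the heart, with Atpaf1 at 2.28 (SE 0.12), and 3 lower in the spleen. Of 18 genes for transcription and maintenance of mitochondrial DNA, 6 were higher and 2 lower in the heart, 2 higher and 2 lower in the spleen, and 7 lower in the small intestine.

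Of 13 transcriptional regulators of these genes, 7 were higher and 0 lower in the heart, 2 higher and 8 lower in the spleen, 4 higher and 1 lower in the kidney, 1 higher and 5 lower in the liver and 3 higher and 2 lower in the small intestine, the last near the shares of all genes. Perm1, a regulator of striated muscle, lay at 6.67 (SE 0.25) in the heart and -6.02 (SE 0.45) in the liver, with a mean of 0.280 CPM there. Esrrb and Esrrg, estrogen-related receptors, lay at 5.61 (SE 0.26) and 3.23 (SE 0.22) in the heart and 5.17 (SE 0.26) and 4.12 (SE 0.22) in the kidney, and at -5.81 (SE 0.48) and -3.69 (SE 0.33) in the spleen. Their mean levels in the spleen were 0.0462 and 0.983 CPM, so that the size of these differences rests on few reads. Esrra was higher in the small intestine (2.13, SE 0.23), with Ppard (3.05, SE 0.37) and the coactivator Ppargc1a (1.66, SE 0.26). Ppargc1a was also higher in the kidney (1.98, SE 0.26) and lower in the spleen (-6.39, SE 0.44), with a mean of 1.10 CPM there. Ppara, a regulator of fatty acid oxidation, was higher in the liver (3.69, SE 0.39). Of 10 carriers and uncouplers, 8 were higher in the heart. Slc25a4, the ADP/ATP carrier of muscle, had a mean of 10398 CPM in the heart (6.93, SE 0.33) and 11.3 CPM in the liver (-5.36, SE 0.52), and Slc25a5, the carrier of most other tissues, was higher in the small intestine (1.57, SE 0.20) and the kidney (1.27, SE 0.20).

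KO was then compared with WT within each organ, which asks whether loss of Nsun6 changes the members. No member was called in any organ, where the edgeR quasi-likelihood test called 0% of all genes (small intestine), 0.0509% (liver), 0.223% (spleen), 0% (kidney) and 0% (heart). DESeq2 called none either, where it called 0.334%, 0.349%, 1.35%, 0% and 0.0107% of all genes in these organs. An unadjusted p under 0.05 was reached by 2 members in spleen (5.14% of all genes), 1 in small intestine (2.39%) and none in liver (4.7%), kidney (0.638%) or heart (0.703%). The median log2 difference between KO and WT over the members was 0.11 for small intestine, 0.01 for liver, 0.13 for spleen, -0.18 for kidney and 0.05 for heart, beside 0.00, 0.00, 0.01, -0.03 and -0.01 over all genes. Members with a positive difference were 58 of 79 tested in small intestine (50.4% of all genes), 42 of 78 in liver (50.6%), 64 of 80 in spleen (51.3%), 20 of 81 in kidney (47%) and 55 of 81 in heart (48.2%). None of the genes of the lists on complex II, carriers, assembly, regulation and the citric acid cycle was called in any organ. Members share their libraries, so that these counts are not independent observations.

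In the spleen, both KO libraries lay above both WT libraries for 35 of 80 members, where 17% of all genes did so, and below for 1 (14.4%). All 17 members of complex V had a positive difference, as did 28 of 37 of complex I, 6 of 8 of complex III and 13 of 18 of complex IV, where 51.3% of all genes did. The members with the smallest p were Atp5k, a small membrane subunit of complex V, and Cox7c and Cox7a2 of complex IV. WT libraries had 35.9 and 34.8 CPM of Atp5k, and KO libraries 54.4 and 44.4 CPM, scaled within the spleen, with a log2 difference of 0.48 (SE 0.18, adjusted p = 0.784). Cox7c had 159.4 and 158.8 CPM in WT and 210 and 197 CPM in KO (0.36, SE 0.15, adjusted p = 0.919), and Cox7a2 had 79.3 and 95.9 against 108 and 122 CPM (0.39, SE 0.17, adjusted p = 0.993). The genotypes did not overlap for these genes, yet none of the differences held after adjustment. Downward, Cox4i2 (-0.82, SE 0.78), Cox5a (-0.17, SE 0.22) and Ndufb4c (-0.29, SE 0.44) had the smallest p. Of 12 erythroid markers, 11 were in the table, and they summed to 61520 and 81869 TPM in the WT spleens and 124340 and 145298 TPM in the KO spleens, with Hbb-bs the most abundant and none at 0. B cell markers, led by Cd79b, were lower in both KO spleens, at 4168 and 3238 TPM against 5528 and 4553 TPM in WT. Smooth muscle markers, led by Acta2, were lower as well (269 and 159 against 312 and 322 TPM), and white fat markers, led by Cfd, higher (152 and 133 against 76.7 and 22.4 TPM), with none of these 3 lists' genes at 0. The part of these markers in the differences of the members was not tested. In spleen WT 2 the hepatocyte markers and in spleen KO 1 the proximal tubule markers given above stood high as well. The median of the members was 0.23 without spleen WT 2 and 0.05 without spleen KO 1.

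In the small intestine, both KO libraries lay above both WT libraries for 1 member (13.6% of all genes) and below for none (11.6%). This member was Cox8b, with 0.114 and 0.156 CPM for WT, 3.56 and 0.641 CPM for KO, from 4, 4, 104 and 16 reads (log2 difference 3.93, SE 1.14, adjusted p = 1). Cox6a2 had 0.2002 and 0.937 CPM in WT and 21.1 and 0.882 CPM in KO (4.28, SE 1.77, adjusted p = 1). Both stood high in KO 1, the library with cardiomyocyte markers at 574 summed TPM. The median over the members was -0.32 without WT 1, -0.30 without KO 2, 0.36 without KO 1 and 0.72 without WT 2, so that its sign depended on single libraries. Replicate 1 lay below replicate 2 in both genotypes, by medians of -0.984 (WT) and -0.599 (KO). With 1 library left out the replicate numbers are unequal between the genotypes, so that this gap enters these medians. The 7 smooth muscle markers, of which none was at 0, summed to 2745 and 1182 TPM in KO 1 and KO 2, led by Actg2 and Acta2, above the 283 and 366 TPM of both WT libraries, and their part in the differences of the members was not tested. The other members with the smallest p were Ndufs6b (0.68, SE 0.69), Cox6b2 (-0.99, SE 1.35), Ndufb2 (-0.29, SE 0.40) and Ndufa4 (-0.39, SE 0.57).

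In the liver, the KO libraries lay above WT for 6 members (17.2%) and below for 4 (16.1%). Ndufa8, Ndufs8 and Ndufa1 of complex I had differences of 0.33 (SE 0.18), 0.35 (SE 0.19) and 0.30 (SE 0.18), and Atp5mpl, Uqcrb and Ndufa4l2 of -0.30 (SE 0.20), -0.32 (SE 0.24) and -0.78 (SE 0.62). Without WT replicate 2, Cox6a2 was called lower in the liver of KO mice (-4.57). Liver WT 1, with cardiomyocyte markers at 25.4 summed TPM, was then the only WT library left. Cox6a2 was also called when no filter on low counts was applied (-3.76, adjusted p = 0.00381 in the edgeR test). The shares of all genes called in these 2 fits are not given here. Its liver counts were 83 and 8 for WT libraries and 6 and 0 for KO libraries.

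In the kidney, the KO libraries lay above WT for 3 members (10.3%) and below for 3 (11.2%). Ndufv1, Cox5a and Ndufs7 had differences of 0.43 (SE 0.33), 0.50 (SE 0.40) and 0.36 (SE 0.30), and Cox7a1, Atp5mpl and Ndufa1 of -0.57 (SE 0.41), -0.48 (SE 0.42) and -0.48 (SE 0.43). Without kidney WT 2, which left a WT group of 1 library, the median over the members was 0.41 in place of -0.18. Ndufa10, Ndufa11 and Cox5a then had log2 differences of 1.39, 1.25 and 1.03. The edgeR calls of these members in that fit assume that the lone library varies like the KO libraries. The share of all genes called there is not given here, so that the calls are not shown to be particular to the members. WT libraries had 112 and 205 CPM of Cox5a, and KO libraries 227 and 222 CPM. Without kidney WT 1 the median was -0.59. Some nephron markers stood low in kidney WT 2, with Slc34a1 at 245 TPM against 933 to 3374 TPM in the other kidneys, Slc5a2 at 34.9 against 247 to 673 TPM, Slc12a3 at 44.7 against 425 to 1226 TPM and Aqp2 at 33.1 against 214 to 345 TPM. The 6 proximal tubule markers summed to 126659 TPM there, led by Kap, between the 89373 and 140300 TPM of other kidneys, and the 6 distal nephron markers to 2814 TPM, below the 4042 to 4600 TPM of the others, with none of either list at 0. Brown fat markers, which mark another tissue rich in mitochondria, summed to 31.6 and 37.6 TPM in the WT kidneys and to 10.03 and 1.83 TPM in the KO kidneys. Ucp1, their defining gene, had 13.96 and 19.99 TPM in WT kidneys, 6.41 TPM in KO 1 and 0 in KO 2, and 3 or 4 of the 7 markers were at 0 in each. White fat markers, led by Cfd, summed to 142 and 90.4 TPM in the WT kidneys, 93.0 TPM in KO 1 and 1.72 TPM in KO 2. The part of these markers in the differences was not tested.

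In the heart, the KO libraries lay above WT for 3 members (7.56%) and below for 1 (9.66%). Cox6c2, Ndufs6b and Atp5k had differences of 0.55 (SE 0.41), 0.33 (SE 0.27) and 0.28 (SE 0.47), and Cox6b2, Ndufb2 and Ndufb4c of -0.48 (SE 0.54), -0.30 (SE 0.38) and -0.43 (SE 0.56). The median over the members was -0.56 without KO 1, -0.25 without WT 2, 0.45 without WT 1 and 0.46 without KO 2, so that its sign depended on single libraries here too. With 1 library left out the replicate numbers are unequal between the genotypes, so that the gap between replicates given below enters these medians. Atrial markers summed to 172 TPM in KO 1, led by Nppa, against 1376 to 3964 TPM in the other heart libraries, and their part was not tested. Replicate 1 exceeded replicate 2 by a median log2 difference of 0.66 over the members in WT and 1.08 in KO, and by 0.85 and 1.19 over the 27 shortest members against 0.50 and 0.74 over the 27 longest. The deeper heart libraries were the replicates 2, with 36090637 and 41763236 counts against 17959542 and 15897446. White fat markers summed to 541 and 207 TPM in WT 2 and KO 2 and to 4.70 and 11.1 TPM in WT 1 and KO 1. Brown fat markers summed to 285 TPM in WT 2, with Ucp1 at 112 TPM, against 109 to 124 TPM in the other hearts, led by Cidea in all 4. The column headers of both replicates 2 of the heart, and of no other library, carry the mark pre, whose meaning the sources used here do not give. The part of depth, exon length, fat and what this mark stands for in the difference was not tested.

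**Figure D4:**
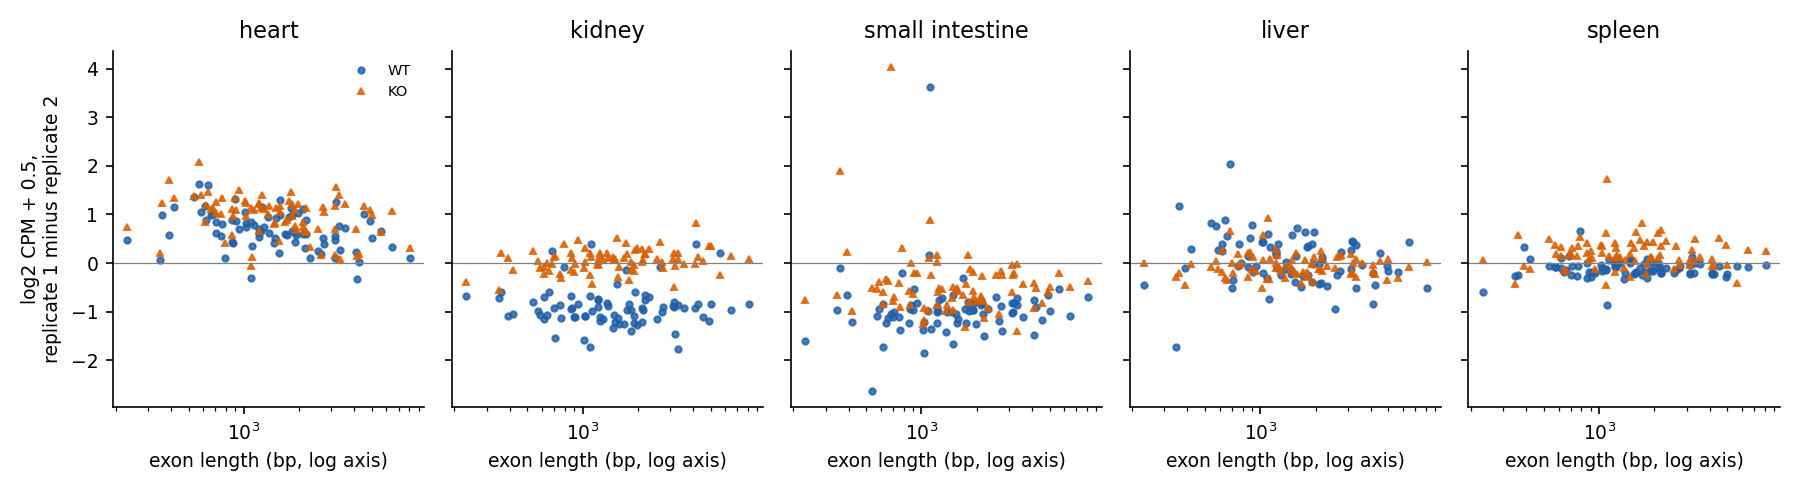
Log2 difference between replicate 1 and replicate 2 of each member against its exon length in bp (log axis), by organ, with WT as circles and KO as triangles. In the heart most members lie above 0 in both genotypes, with medians of 0.66 (WT) and 1.08 (KO), and in the small intestine below 0, with medians of -0.98 and -0.60.

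Pairing libraries by replicate number gave medians of opposite sign in all 5 organs. The median log2 ratio of KO to WT over the members was 0.35 for replicates 1 and -0.07 for replicates 2 of small intestine, 0.35 and -0.60 for kidney and 0.17 and -0.14 for heart. It was 0.32 and -0.01 for spleen and -0.01 and 0.02 for liver, where 1 or both lay near 0. In both pairs, 36 of 80 members were higher in KO spleen and 4 lower, where 22.9% and 22% of all genes were. In heart, 22 of 81 were higher and 7 lower (19.2% and 22%), and in small intestine 22 of 79 were higher and 4 lower (27.8% and 25.3%). The liver had 14 of 78 higher and 14 lower (26% and 24.2%), and the kidney 5 of 81 higher and 5 lower (18.9% and 18%).

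**Figure D5:**
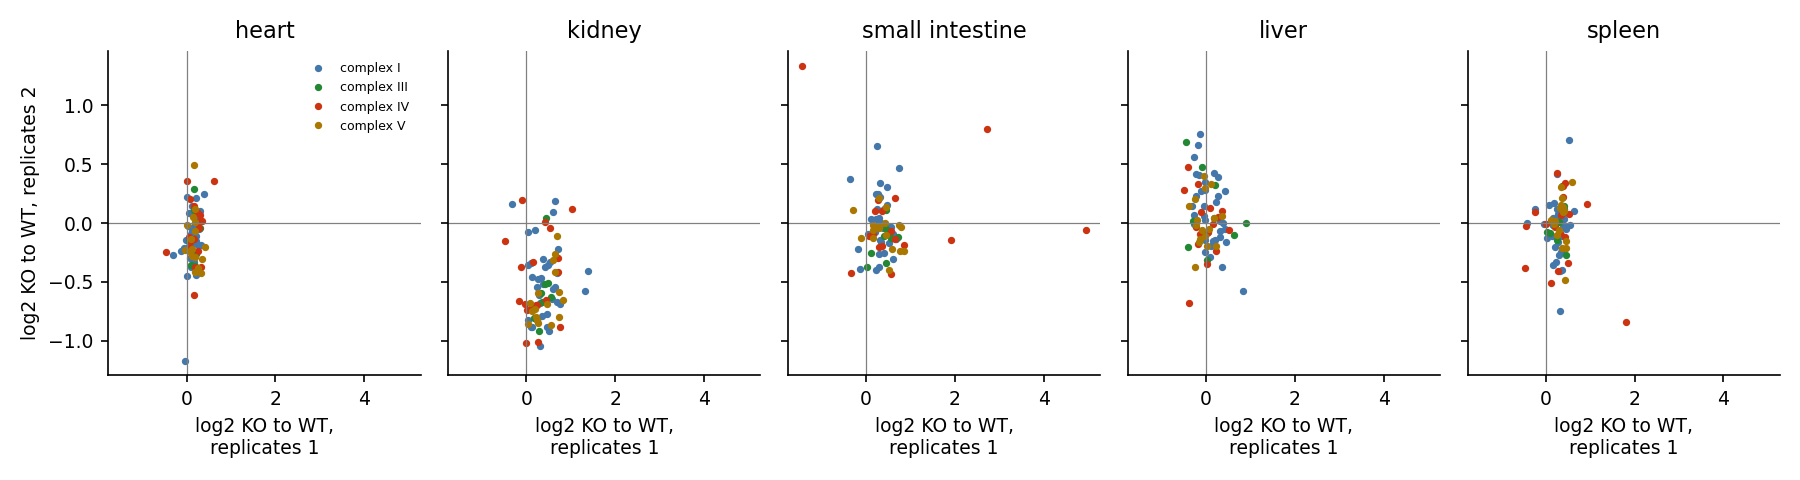
Log2 ratio of KO to WT of each member for replicates 1 (horizontal axis) and replicates 2 (vertical axis), by organ. Points in the upper right quadrant were higher in KO in both pairs, which holds for 36 members in the spleen, 22 in the heart, 22 in the small intestine, 14 in the liver and 5 in the kidney.

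Over the 5 organs together, no member was called (edgeR called 0.00472% and DESeq2 0.0109% of all genes). None reached an unadjusted p under 0.05 (2.21% of all genes), and the median of the members was 0.05 against 0.01 over all genes. Ndufv1 (0.23, SE 0.15), Atp5d (0.22, SE 0.14) and Ndufs6b (0.37, SE 0.26) had the smallest p, with an adjusted p of 1 each. The difference between organs in the genotype effect was tested as an interaction, and edgeR called no member (0% of all genes). Cox8b and Cox6a2 were the 2 members under an unadjusted p of 0.05 (2.47% of all genes), followed by Ndufa4l2, each with an adjusted p of 1. DESeq2 called Cox8b (adjusted p = 0.0247, where 0.572% of all genes were called). Both genes stood high in small intestine KO 1 and liver WT 1. No isoform share was told apart between the genotypes. Over the 9 shares, the smallest p of a two-sided exact permutation test of genotype within organs was 0.1412 for Cox8b (adjusted p = 0.9884).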

How the data were processed

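Poly-A RNA of 5 organs, WT and Nsun6-KO, was read in 20 libraries. The authors trimmed reads with cutadapt, mapped them with HISAT2 2.1.0 to mm10 (the methods print GRCh38) and counted exons of Ensembl GRCm38.102 with featureCounts 2.0.1, as the methods, the stored command and the submitters' processing notes give it. The authors deposited raw counts per gene with merged exon lengths in bp, a property of the annotation other than a measurement, with replicates not pooled. The methods give strand and pair options that the stored command lacks, so that overlapping genes cannot be told apart by strand if the command holds, and intervals from counts would not cover this. Coordinates are GRCm38. No per-sample column of other samples was present.

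From the counts, TPM (exon length) was used between genes and CPM after TMM between libraries. KO was compared with WT within each organ, organs with the mean of the other 4, and genotype over all libraries, with the edgeR 4.0.16 quasi-likelihood test (R 4.3.3, filterByExpr, robust). The threshold was a Benjamini-Hochberg adjusted p under 0.1 over all genes with a change of more than 2-fold, the thresholds of the methods. DESeq2, the tool of the authors, here in version 1.42.0, and limma 3.58.1 on log2(TPM + 0.1) were alternatives. Scripts were tested on simulated data. Shares of isoform genes, from TPM, were compared with exact permutation tests, and summed levels were not tested. Libraries were treated as independent, and p-values measure the spread between them.

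Members, lists and tests were chosen with earlier results of these data known. Genes named are the mitochondrial members, the isoform sets, the 3 members with the smallest p in each direction in each organ (KO against WT), the 3 highest and 3 lowest called members of each organ, the highest and lowest mean TPM of each complex, the 3 smallest p of the shared and interaction effects, called genes of the other lists if 5 or fewer and otherwise the 3 with the smallest p (of which examples are given), and Nsun6. Atp5b, Ndufs1, Uqcrc2, Uqcrh, Atp5h, Itgad, marker genes, members not called in the heart or spleen, and the members named from left-out libraries or as the full lists of calls were chosen after their values were seen.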

Additional observations from a re-analysis of the deposited data

Results flagged for a closer look

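A library stood far from the other 3 of its organ in 10 of 64 quantities, where chance alone gives about 1 in 20 for a single quantity. The quantities share libraries and some are tied to each other, so that this rate gives no test of their number. In the small intestine the highest library, KO 1, had a Cox6a2 share of 4.979% and a Cox8b share of 1.547%, and in the liver the highest library, WT 1, had a Cox6a2 share of 1.233% and a Cox8b share of 0.5672%. Both libraries held the cardiomyocyte markers given above, whose part was not tested. The Cox7a1 share was lowest in spleen KO 2 at 0.6819% and in heart WT 2 at 58.71%, where the other heart libraries lay between 68.97 and 70.65%. The Ndufa4l2 share was lowest in spleen KO 1 at 0.1823%. Summed levels were highest in kidney WT 2 for complex I, at 19940 TPM, and in liver WT 1 for complex IV, at 7623 TPM, and complex V, at 5274 TPM. Hepatocyte markers were lowest in that liver library, at 162881 TPM against 221380 to 251014 TPM in the other livers, led by Alb in all 4, and their part was not tested.

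Signal was also present in genes outside the members. Although the mitochondrial members were listed at 0, 11 nuclear genes held stretches of at least 100 bases that match 9 of them with at least 95% identity, and all 11 had counts in every library. Together they took up to 1.508% of the counts in the heart, where the lowest library had 1.013%, and as little as 0.02243% in the spleen, where the highest had 0.042%. The kidney lay between, at 0.2504 to 0.8764%, as did the liver, at 0.1608 to 0.2542%, and the small intestine, at 0.07097 to 0.2637%. The kidney libraries of KO mice, with 0.3677 and 0.2504%, lay below those of WT mice, with 0.6838 and 0.8764%. The same held in the liver, with 0.2215 and 0.1608% against 0.2542 and 0.2366%. The genotypes overlapped in the heart, the spleen and the small intestine, and no such difference was tested. Gm28661, which matches mt-Co2, had the most counts, 788822 over the 20 libraries, followed by Gm10925, which matches mt-Atp6, with 574927. This order did not hold in every library. Heart KO 2 alone held 280546 of the Gm28661 counts, and every liver library held more counts of Gm10925 than of Gm28661. These 2 genes were chosen after their values were seen. Whether these reads came from the mitochondrial genome or from the nuclear copies cannot be told apart from gene counts.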

How the results depend on the processing

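Of 504 comparisons between a result and an alternative, 461 were rated the same. A count was rated so when it stayed within 1.5 times, and a median when it moved by less than the SD between replicates. The sign of a median was not part of this rule, so that medians that changed sign could be rated the same. Counts of members higher in the heart (76 to 77) and lower in the spleen (75) held when each library was left out. Leaving out each library in turn moved the median log2 difference between KO and WT from -0.319 to 0.716 in the small intestine, from -0.0142 to 0.0303 in the liver, from 0.0473 to 0.250 in the spleen, from -0.593 to 0.406 in the kidney and from -0.558 to 0.456 in the heart. It gave 0 to 1 members called in the liver and 0 to 3 in the kidney, 1 to 4 members lower in the small intestine (1 without small intestine WT 1), and, in the kidney, 8 to 25 higher and 0 to 1 lower (8 higher without kidney WT 2 and 25 without kidney WT 1). With library totals, the median difference between KO and WT in the liver was -0.126 (-0.136 over all genes). On that scale, against the other organs, 45 members were lower in the liver, 2 higher in the spleen, 27 higher and 0 lower in the kidney. With limma on TPM, 5 were lower in the small intestine, 46 lower in the liver, 27 higher and 0 lower in the kidney. With no filter on low counts, 1 member was called in KO liver and 0 were lower in the kidney, and with at least 10 counts in every library 1 was lower in the small intestine and 0 in the kidney. In WT libraries alone, 1 was higher in the liver, 0 higher in the spleen, 0 lower in the kidney and 1 lower in the heart. At an adjusted p under 0.05, 0 were lower in the kidney. DESeq2 called 1 interaction. As alternatives chosen after seeing the data, leaving out both heart replicates 2 left 0 lower in the kidney and 1 in the heart, leaving out both heart replicates 1 left 1 lower in the small intestine and, for the kidney, 24 higher and 0 lower, and leaving out small intestine KO 1 and spleen WT 2 kept every count within 1.5 times. The causes of these moves were not tested. The shares of all genes called under these alternatives are not given here, so that the counts do not set the members apart from other genes. Leaving mitochondrial genes out of the scaling changed nothing, because they were listed at 0.

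With the replicate number as a block, the median difference between KO and WT in the liver was 0.0329 and 0 members were lower in the kidney than in the other organs, and no other call or count moved by over 1.5 times. The numbers are not stated to pair animals. Replicate differences of WT and KO correlated with r = 0.623 in the small intestine, 0.434 in the heart, 0.213 in the kidney, 0.0592 in the liver and -0.0122 in the spleen, across genes. Over the members alone r was 0.798 for heart, 0.342 for small intestine, 0.238 for liver, 0.227 for kidney and -0.134 for spleen. The permutation tests of shares were not repeated with a library left out, so that their stability to this is not known.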
